A study of Triticum aestivum with 48 samples.

Results

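The core histones H2A and H2B were read in wheat seedlings from 5 genes: wcH2A-2, wcH2A-3 and wcH2A-9, which encode H2A, and wcH2B-6 and wcH2B-8, which encode H2B. Their members were all probe sets of the Affymetrix Wheat Genome Array that the probe annotation pairs with one of these genes by symbol or synonym. That gave 18 of 61290 probe sets: 1 for wcH2A-2, 2 for wcH2A-3, 6 for wcH2A-9, 2 for wcH2B-6 and 7 for wcH2B-8. No filter on low values was used, so all 18 entered every test.

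The samples were roots and shoots from seedlings aged 15 days, of the genotypes HD2967, K9107, K307 and Chotilarma (CL), at 2 nitrogen (N) supplies, 8 mM calcium nitrate (control) and 0.08 mM (stressed) in a medium that otherwise lacked N. All seedlings were grown in pots of vermiculite and perlite, 5 seeds to a pot. Genotype, tissue and supply gave 16 groups of 3 arrays (48 arrays). The labels number the arrays of a group 1 to 3 and do not say which pots or plants each holds, so p-values measure the spread between these arrays, which may be partly technical.

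H2A and H2B pair as dimers, and these dimers with the H3 and H4 tetramer form the nucleosome around which DNA is wrapped. In plants, as in animals, the canonical core histone genes are transcribed mainly during DNA replication, so their transcripts are abundant in tissue with dividing cells such as root tips, shoot meristems and the base of young grass leaves. Plants carry many nearly identical copies, and hexaploid wheat carries homoeologues of each. Of the 18 probe sets, 9 end in _x_at, a suffix for probes that may bind other transcripts, and 2 end in _s_at, a suffix for probes shared by several transcripts, so a value may sum several histone copies. In the gene order of the RefSeq table (assembly IWGSC CS RefSeq v2.1), wcH2A-2 and wcH2A-3 lie near each other on a chromosome, with 3 protein-coding genes between them.

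Values are log2 signal intensities. Array medians fell into 4 ranges of 12 arrays (1.14 to 1.26, 4.33 to 4.47, 4.61 to 4.68 and 5.32 to 5.39), called normalization sets here, and all 12 CL arrays formed the lowest. The CL scale and the CL genotype therefore cannot be told apart, and the groups of HD2967, K9107 and K307 mix arrays of different sets. Single arrays are given as deposited, offset of their set included, so differences come from the fit with a term for the set and orders between arrays of different sets are read from percentiles. The rank of a probe set among the 61179 probe sets of its own array, given as a percentile, leaves out an offset common to the whole array. A set may still shift single probe sets, which percentiles do not remove. CL stressed root array 1 is a shoot by its tissue characteristic but a root by its title and description, and it was analysed with the roots. On the values, with the mean of each probe set within its normalization set subtracted, the first principal component separated all 24 root arrays from all 24 shoot arrays. In the check of labels, 36 of 36 HD2967, K9107 and K307 arrays matched best the genotype they are labelled with. Where a histone gene is given with 1 value, it comes from its brightest probe set, the one with the highest mean over all 48 arrays.

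In roots the histone genes, read from their brightest probe sets, ranked high on every array, with wcH2A-2 as the exception. The wcH2A-9 probe set Ta.27657.6.S1_x_at lay between the 93.5th and the 99.1st percentile over the 24 root arrays. wcH2A-3 (Ta.27192.1.S1_at) lay between 86.5 and 93.5, wcH2B-6 (Ta.27708.1.S1_x_at) between 89.6 and 96.9, and wcH2B-8 (Ta.7378.35.S1_x_at) between 85.1 and 97.2. wcH2A-2 (Ta.29542.1.S1_x_at) lay lower and was wider spread, between 1.16 and 73.2, with the 6 CL arrays at 34.6 or below.

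In shoots the arrays of 1 group lay far apart. Over the 24 shoot arrays the wcH2A-9 probe set ranked either at 96.0 or above, on 13 arrays, or at 55.5 or below, on 11, with no array in the 40.6 percentile points between. The same 13 and 11 arrays lay on either side of the largest gap for wcH2A-3, between 64.5 and 86.1. The median percentile of the 18 probe sets ran from 37.3 to 61.9 on the 11 lower arrays and from 84.5 to 95.7 on the 13 higher ones. A gap of over 20 percentile points was seen in shoots for 11 of the 18 probe sets, against 12.4% of all probe sets, and in roots for 4, against 9.78%. The shoot gaps did not all part the same arrays. Those of Ta.7378.35.S1_x_at and Ta.7378.1.S1_x_at of wcH2B-8 set 1 array below 23. Those of Ta.27657.12.S1_at, Ta.7378.18.S1_at and Ta.7378.1.S1_at set 8 below 16, 10 below 14 and 16 below 8. In roots each gap of over 20 points set 1 array, CL stressed root array 1 with its differing tissue labels, below the other 23. It ranked at 15.2 for Ta.7378.18.S1_x_at, 0.337 for Ta.7378.1.S1_x_at and 42.8 for Ta.7378.18.S1_at of wcH2B-8, and at 44.0 for Ta.27192.1.S1_s_at of wcH2A-3. The next root arrays lay at 60.7, 36.6, 63.4 and 66.4. On CL arrays a gap between low ranks can be a small difference in value. For Ta.7378.1.S1_x_at the ranks of 0.337 and 36.6 were log2 values of 0.25 and 1.00. Its shoot gap lay between CL control arrays, whose values ran from 0.55 to 1.20. These values were below the CL array medians or near them. These 18 probe sets share genes and may share transcripts, so they are not independent.

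**Figure D1:**
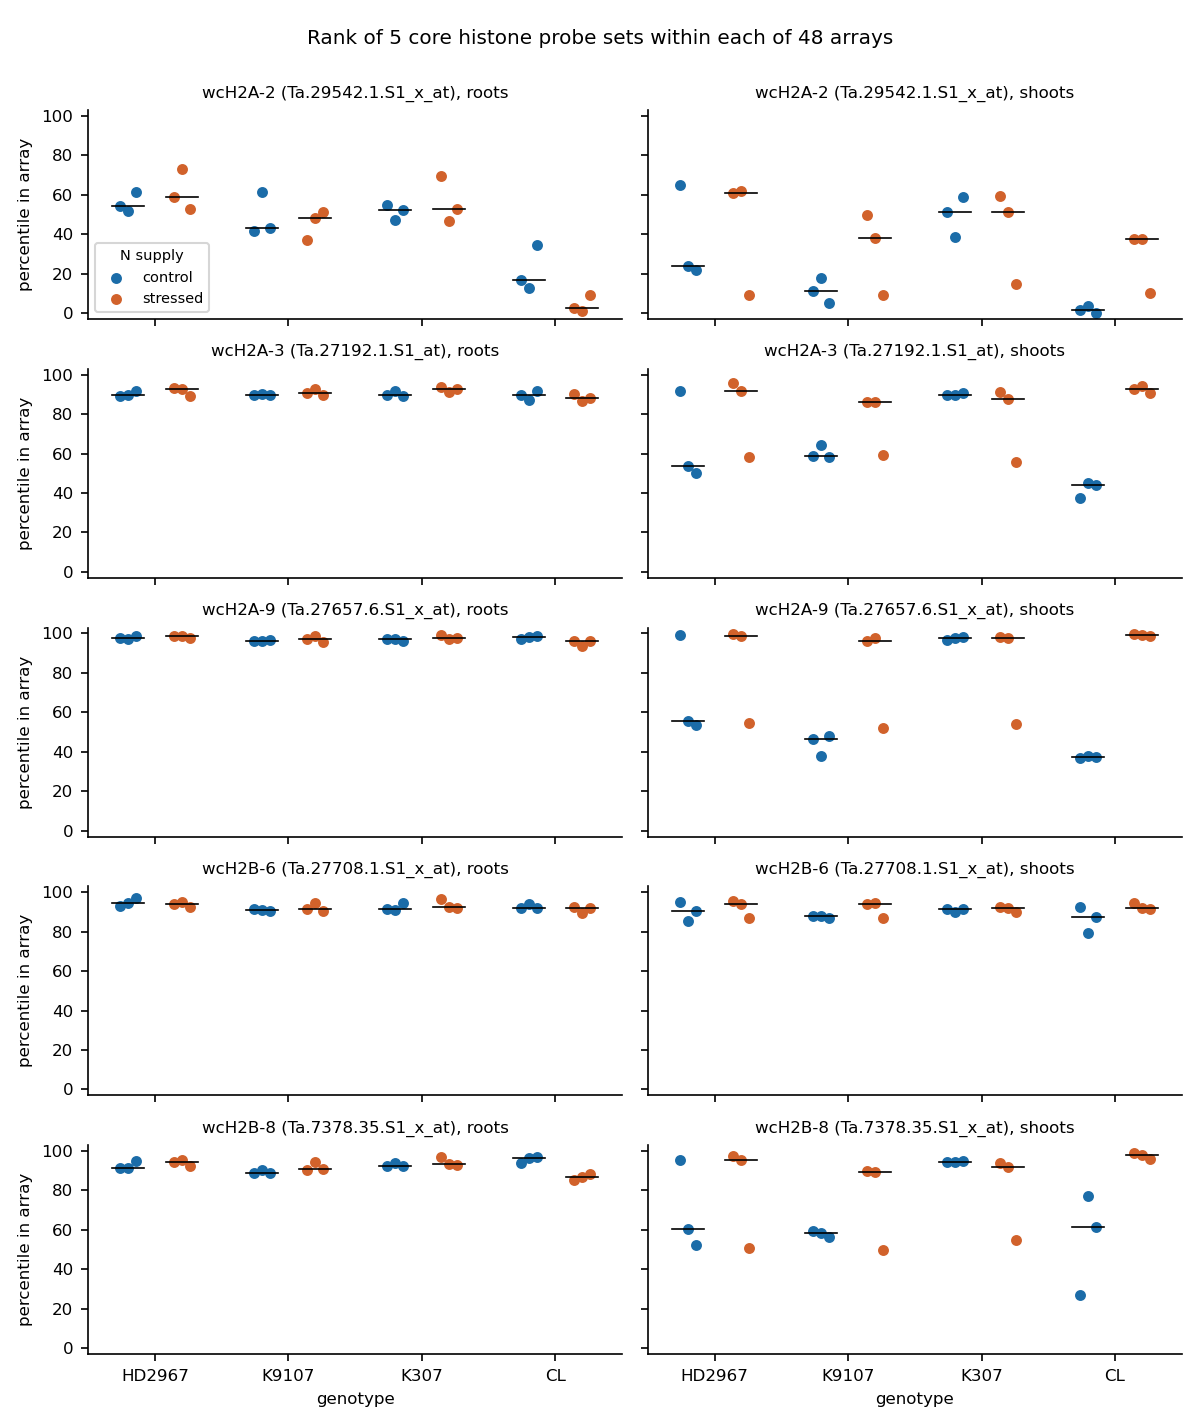
Percentile within the array (y axis) of the representative probe set of each of the 5 histone genes, for the 4 genotypes (x axis), in roots (left) and shoots (right). Points are single arrays, 3 per group, blue for control and orange for stressed, and black bars are group medians. Root points for wcH2A-9 lie between 93.5 and 99.1, and shoot points lie at 96.0 or above or at 55.5 or below.

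The percentiles of wcH2A-9 in HD2967 control shoots were 99.1, 55.5 and 53.6 on arrays 1, 2 and 3, and in stressed shoots 99.5, 98.7 and 54.6. In K9107 shoots they were 46.4, 37.8 and 48.2 at control N and 96.0, 97.8 and 52.0 under stress. In K307 shoots they were 96.8, 97.8 and 98.3 at control N and 98.4, 97.7 and 54.2 under stress. HD2967 was thus mixed at both supplies, K9107 was low on all control arrays and on 1 of 3 stressed ones, and K307 was high on all but stressed array 3. CL was the genotype whose supplies did not mix: its control arrays lay at 37.0, 37.8 and 37.3 and its stressed arrays at 99.5, 99.5 and 98.9.

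wcH2B-8, an H2B gene, put the same arrays of HD2967, K9107 and K307 apart. Its percentiles in HD2967 shoots were 95.7, 60.7 and 52.5 at control N and 97.3, 95.2 and 51.0 under stress. In K9107 shoots they were 59.6, 58.5 and 56.2 at control N and 90.0, 89.5 and 49.7 under stress. On array 3 of the stressed seedlings wcH2B-8 was thus low in HD2967, K9107 and K307 alike, the last at 55.1. CL control shoots were spread, at 27.2, 77.3 and 61.2, below the stressed arrays at 98.7, 97.8 and 95.9.

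wcH2B-6, the other H2B gene, did not fall into separate ranges. Its shoot percentiles ran from 79.2 to 95.5, with a largest gap of 6.35 points. In K9107 shoots it lay at 87.9, 88.0 and 87.2 at control N and at 93.9, 94.6 and 87.1 under stress, so the low stressed array was the same but the distance was small. The second wcH2A-3 probe set, Ta.27192.1.S1_s_at, also stayed together in shoots, between 52.2 and 75.0. The 2 probe sets of wcH2A-3 thus differed in pattern, and the deposited values do not show which transcripts each one reads.

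The order of the 16 groups by median percentile followed this split. For wcH2A-9 the highest was the CL stressed shoot (99.5) and the lowest the CL control shoot (37.3), with the K9107 control shoot (46.4) and the HD2967 control shoot (55.5) next above it. Of the 15 pairs of neighbours in that order, 13 overlapped in range. For wcH2B-8 12 of 15 overlapped, for wcH2A-3 14, and for wcH2B-6 and wcH2A-2 all 15. Neighbours in such an order are the closest groups, and overlap of their ranges is a description of the spread, not a test. The places of the CL groups in these orders cannot be told apart from the CL set.

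**Figure D2:**
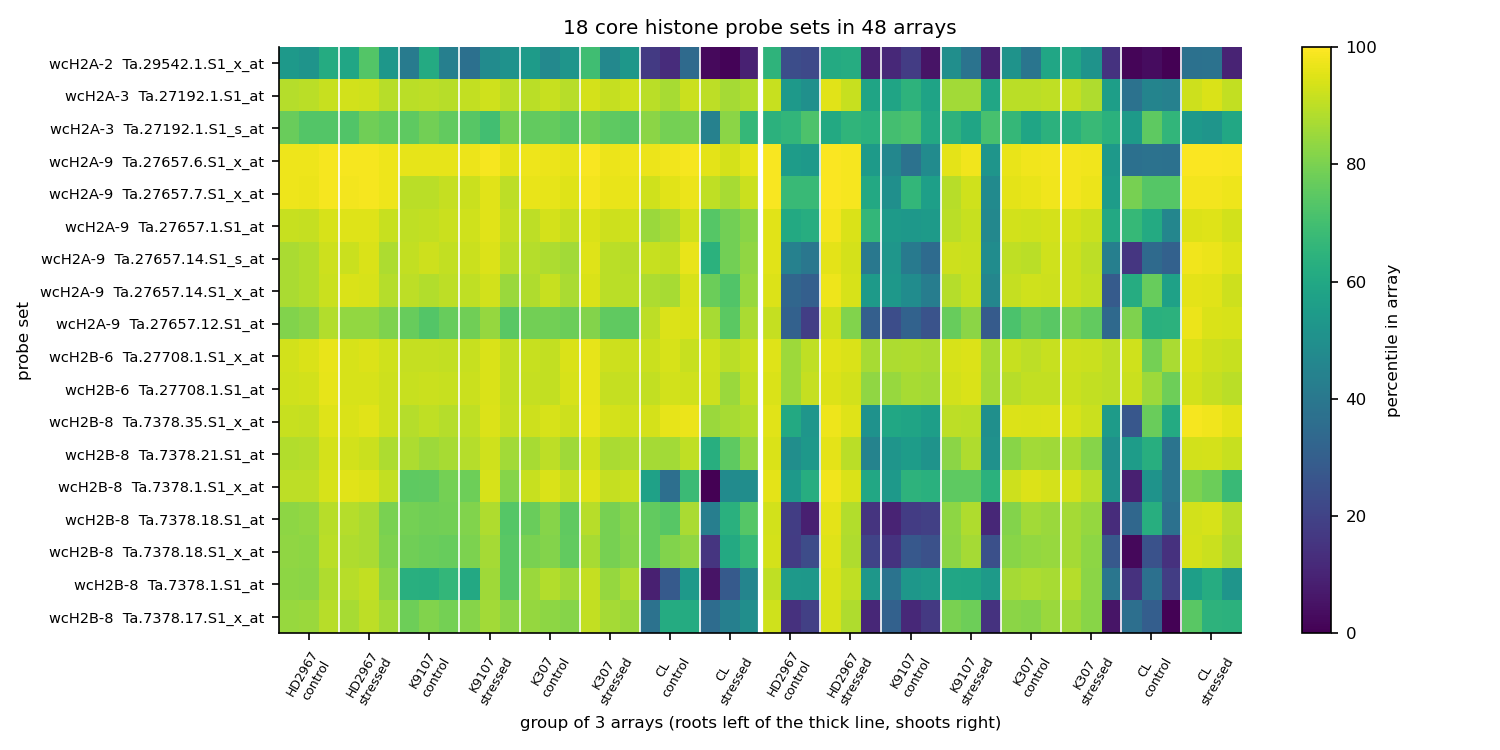
Percentile within the array (colour, 0 to 100) of the 18 histone probe sets (rows) on the 48 arrays (columns, replicates 1 to 3 from left to right in each group). Shoot columns alternate between high and low for most rows, while the 2 wcH2B-6 rows lie between 78.0 and 95.5 in every shoot array.

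The spread between arrays of a group was measured as the residual SD after group and set effects. In shoots it was 2.15 for wcH2A-9, 1.63 for wcH2B-8, 1.31 for wcH2A-3 and 1.04 for wcH2A-2, against a median of 0.247 over all probe sets. It was 0.58 for wcH2B-6. In roots the same 5 values were 0.44, 0.41, 0.26, 0.43 and 0.34, against a median of 0.227. The largest of the 18 in shoots was 2.19, for the wcH2B-8 probe set Ta.7378.18.S1_at. A shoot response of a few log2 units could therefore fail the test for these probe sets: the standard error for wcH2A-9 was 1.59 in CL and 2.15 in HD2967.

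**Figure D3:**
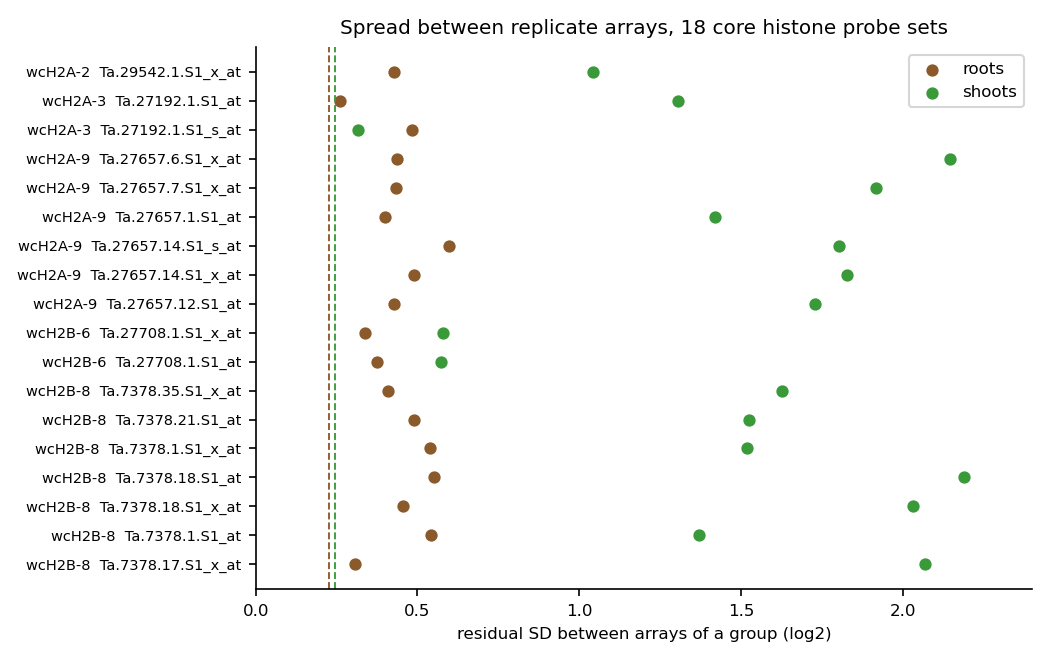
Residual SD between arrays of a group (x axis, log2) for each of the 18 histone probe sets (y axis), in roots (brown) and shoots (green). Dashed lines are the medians over all probe sets, 0.227 in roots and 0.247 in shoots. Shoot points exceed root points for all probe sets but Ta.27192.1.S1_s_at.

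Low N in shoots was compared first, in each genotype. In CL shoots 4 of 18 histone probe sets were called higher under stress and none lower, with a median difference of 3.61 over the 18 and of -0.04 over all probe sets (2.67% of all probe sets were called higher). Calls are limma with a term for the set and Benjamini-Hochberg adjustment over 61179 probe sets, at an adjusted p under 0.05. wcH2A-9 (Ta.27657.6.S1_x_at) lay at 0.99, 0.98 and 0.92 in control and at 8.20, 8.19 and 7.48 in stressed CL shoots. The ranges did not overlap, and the difference was 6.99 ± 1.59 (SE, 3 arrays against 3; adjusted p = 0.0227). This SE, like the others for shoots, comes from the fit of the shoot arrays of all genotypes, where the residual SD was 2.15. The SD within the CL groups was smaller, 0.037 in control and 0.42 in stressed shoots. The SE and the p-value therefore reflect the spread in the other genotypes as well. The CL control values of wcH2A-9 lay below the CL array medians (1.14 to 1.26), at percentiles of 37.0 to 37.8. They may be near the floor of these arrays. The size of the difference and the small control SD may therefore not measure transcript levels.

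wcH2B-8 (Ta.7378.35.S1_x_at) rose from 0.83, 2.56 and 1.60 to 7.16, 6.66 and 5.82, a difference of 4.89 ± 1.21 (adjusted p = 0.0335). wcH2A-3 (Ta.27192.1.S1_at) rose from 1.01, 1.09 and 1.05 to 4.81, 5.34 and 4.61, a difference of 3.87 ± 0.97 (adjusted p = 0.0359). Its control values also lay below the array medians. The other call was the wcH2A-9 probe set Ta.27657.14.S1_s_at, at 5.22 ± 1.34 (adjusted p = 0.0401).

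wcH2B-6 lay at 4.42, 2.77 and 3.93 in control and 5.23, 4.89 and 4.78 in stressed CL shoots, a difference of 1.26 ± 0.44 that did not pass (adjusted p = 0.139). wcH2A-2 stayed under 1 and below the array median on all 6 arrays, with a difference of 0.40 ± 0.78 (adjusted p = 0.859). The second wcH2A-3 probe set, Ta.27192.1.S1_s_at, had the opposite sign, -0.53, and did not pass (adjusted p = 0.282).

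The CL shoot count rested on every array but one. Leaving out 1 array at a time gave 0 calls without stressed array 1, stressed array 2 or control array 1, 1 call without stressed array 3, 2 without control array 2 and 4 without control array 3. It was 9 with the replicate number as a block in all genotypes and 4 with the block within CL only, an alternative added after the data were seen. With no set term it was 0. In these fits calls were counted among the histone probe sets only, so their share over all probe sets is not given.

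In K9107 shoots none of the 18 was called by limma (0.105% of all probe sets were). An unadjusted p under 0.05 was seen for 11 of the 18 and for 6110 of all 61179 probe sets. The median difference was 2.80 against -0.06 over all probe sets. wcH2A-9 (Ta.27657.6.S1_x_at) lay at 4.06, 4.66 and 5.19 in control and at 9.55, 10.93 and 4.74 in stressed K9107 shoots. By percentile, stressed arrays 1 and 2 lay far above the controls (96.0 and 97.8 against at most 48.2) and stressed array 3 close above them, at 52.0. The difference was 4.97 ± 1.68 (adjusted p = 0.282). Within the sets that held both supplies it was 5.48 (1 array against 1) and 6.0 (1 stressed against 2 control), both without stressed array 3, the low one, which was alone in its set. Fitted on the 6 K9107 arrays alone 13 probe sets were called, with the replicate block 5 and with array weights 1. In the fit on 6 arrays the set term took up stressed array 3, so the difference left that array out. Calls over all probe sets were not counted in these fits.

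In HD2967 and K307 shoots no histone probe set was called (0.036% and 0.0458% of all were). None had an unadjusted p under 0.05 in either, where 2614 and 2665 of all 61179 probe sets did. In HD2967, wcH2A-9 (Ta.27657.6.S1_x_at) lay at 11.08, 5.01 and 4.85 in control and 12.13, 10.70 and 5.68 in stressed shoots. The difference was -1.10 ± 2.15 with the set term and 2.09 after quantile normalization of all arrays with no set term, so its direction is not settled. The supplies shared no set in HD2967 shoots, and the set offset came from the other genotypes.

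In K307, wcH2A-9 (Ta.27657.6.S1_x_at) lay at 9.78, 10.91 and 10.42 in control and 10.52, 10.15 and 4.92 in stressed shoots, a difference of -1.83 ± 1.65 (adjusted p = 1.00). By percentile, stressed arrays 1 and 2 lay at 98.4 and 97.7, near the controls at 96.8 to 98.3, and stressed array 3 at 54.2. Within sets the difference was 0.55 in the set without that array and -5.50 in the set with it. Averaged over the 4 genotypes none of the 18 passed (0.842% of all did). Of the 18, 6 had an unadjusted p under 0.05, as did 7878 of all 61179 probe sets. The test of genotype by N in shoots called none of the 18 (0.0588% of all), with an adjusted p of 0.273 for wcH2A-9.

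**Figure D4:**
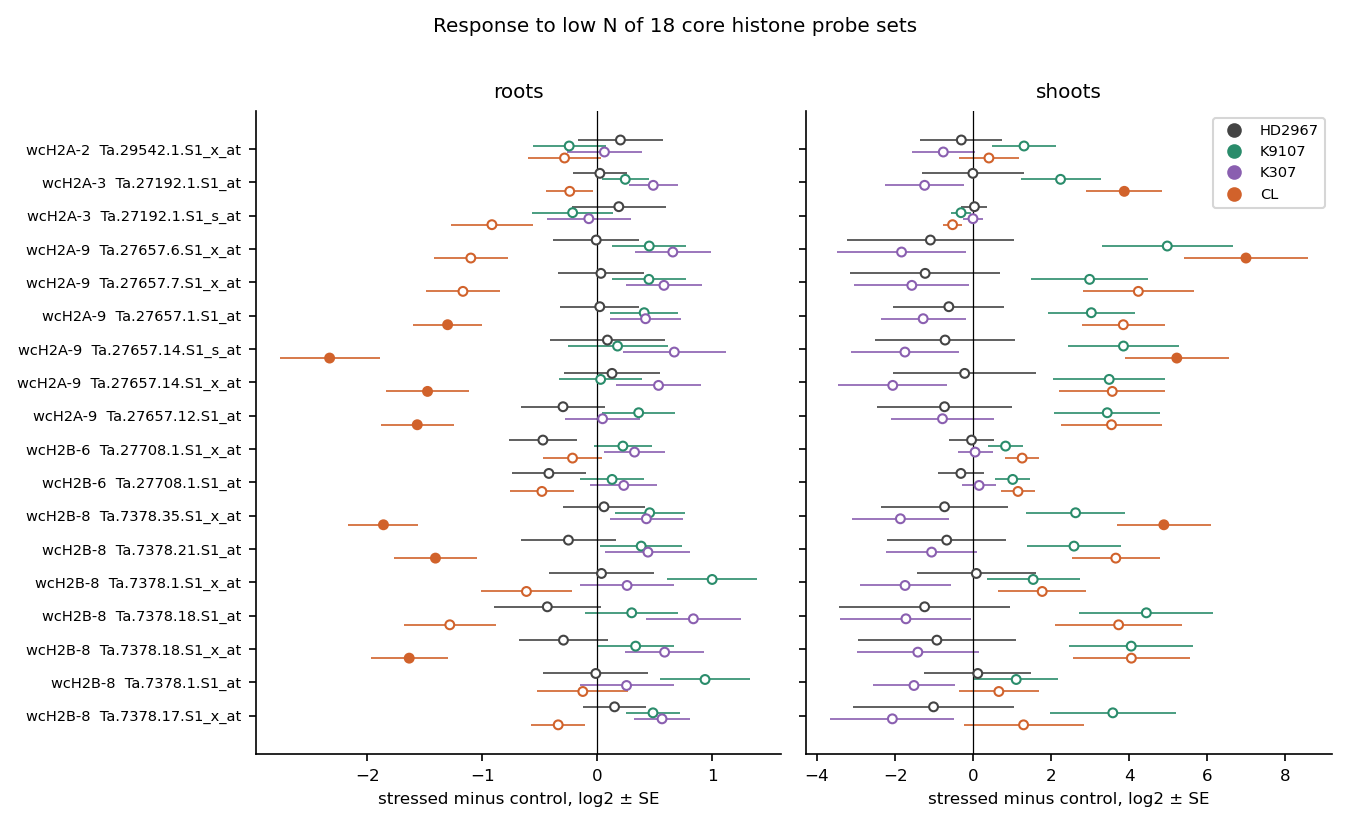
Stressed minus control difference (x axis, log2, ± SE) of each of the 18 histone probe sets (y axis) in each genotype, in roots (left) and shoots (right, a wider axis). Filled points passed the test and open points did not. In CL, 7 probe sets were lower in roots and 4 higher in shoots, and no filled point belongs to another genotype.

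Other genes were set beside the histones in CL shoots. Of 10 tubulin probe sets, which read the subunits of microtubules, 7 were higher under stress, with a median of 2.64. Both probe sets of Hmgb3, a high mobility group chromatin protein, rose, by 1.80 ± 0.35 and 1.62 ± 0.26 (adjusted p = 0.0096 and 0.00353). Of 34 probe sets of 5 photosynthesis genes (PsbO, PsbP, petC, PRK and rbcl) none was called, with a median of -0.14. In bulk tissue, fewer cells of a type and less RNA per cell cannot be told apart.

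In HD2967, K9107 and K307 shoot groups that held both high and low arrays, tubulin levels were lower on the low arrays. The median percentile of the 10 tubulin probe sets was 96.0, 88.2 and 81.8 on HD2967 control shoot arrays 1, 2 and 3, and 95.8, 96.0 and 83.3 on K9107 stressed shoot arrays 1, 2 and 3. It was 95.6, 94.5 and 88.1 on K307 stressed shoot arrays. In each of these groups the arrays low in wcH2A-9 were also the ones low in tubulins. CL groups did not all follow this. On CL control shoot arrays 1, 2 and 3 the tubulin median was 87.7, 76.1 and 87.9. The median percentile of the 18 histone probe sets was 37.3, 61.9 and 41.6 there, so the array highest in histones was lowest in tubulins. On CL stressed root arrays 1, 2 and 3 tubulins lay at 95.5, 95.2 and 94.9 and histones at 68.6, 76.9 and 83.5. The summed tubulin level (log2) ran from 12.36 to 14.65 in K9107 stressed and from 12.72 to 13.32 in K9107 control shoots, and in CL from 8.85 to 10.25 at control N and from 10.73 to 11.29 under stress. These K9107 sums mix sets. The summed photosynthesis level ran from 14.90 to 15.80 in K9107 stressed and from 15.20 to 15.91 in K9107 control shoots. The part of dividing tissue or of the tissue sampled in these results was not tested.

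The named genes most like the histones in shoots, by the correlation of residuals with the mean of the 5 histone genes, were Tubb5 and tubb3 (beta-tubulins), hsp16.9A (a small heat shock protein), XTH (a xyloglucan endotransglucosylase of the cell wall), TUBA (an alpha-tubulin) and Hmgb3. Because the shoot arrays fall apart, correlations are given within the 13 higher and the 11 lower arrays. The residuals are those of the fit of all 24 shoot arrays, where some group means mix higher and lower arrays. The split can therefore still enter the correlations within each side. For Tubb5 r was 0.98 and 0.79, for hsp16.9A 0.72 and 0.88, and for XTH 0.80 and 0.74. For tubb3 it was 0.88 and 0.60, for TUBA 0.84 and 0.41, and for Hmgb3 0.80 and 0.46. The arrays share libraries, sets and group means, so these are descriptions. The ranking used r over all 24 shoot arrays, which 629 of 61179 probe sets, members included, had above 0.9. Only 93 named genes that are not histones could be ranked. Each was ranked by its probe set of highest correlation, which favours genes with several probe sets.

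In roots low N was followed by lower histone values in CL. Of 18 probe sets 7 were called lower and none higher (0.778% of all probe sets were called lower), and the median was -1.13 against -0.02 over all probe sets. All 18 estimates were below 0. wcH2B-8 (Ta.7378.35.S1_x_at) lay at 5.12, 5.60 and 6.21 in control and 3.28, 3.92 and 4.15 in stressed CL roots, with no overlap (adjusted p = 0.00315).

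For wcH2A-9 the calls came from probe sets other than the brightest. Ta.27657.14.S1_s_at lay at 4.69, 4.31 and 5.96 in control and 1.67, 2.91 and 3.39 in stressed CL roots, a difference of -2.33 ± 0.44 (adjusted p = 0.00775). Ta.27657.12.S1_at, Ta.27657.14.S1_x_at and Ta.27657.1.S1_at fell by 1.56 ± 0.32, 1.47 ± 0.36 and 1.30 ± 0.30 (adjusted p = 0.0127, 0.0383 and 0.027). The brightest probe set, Ta.27657.6.S1_x_at, lay at 6.25, 6.36 and 7.32 and at 5.70, 5.10 and 5.84, a difference of -1.10 ± 0.32 (adjusted p = 0.0956). Its ranges did not overlap either, and it did not pass.

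The other wcH2B-8 calls were Ta.7378.18.S1_x_at, at -1.63 ± 0.33, and Ta.7378.21.S1_at, at -1.41 ± 0.36 (adjusted p = 0.0139 and 0.0483). wcH2A-3, wcH2B-6 and wcH2A-2 had no call, with their brightest probe sets at -0.24 ± 0.20, -0.21 ± 0.25 and -0.28 ± 0.32. The CL root count was 2 without control array 3 and 3 without stressed array 1, whose tissue labels differ. It was 1 with no set term, 0 on the 6 CL root arrays alone and 4 with array weights.

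In CL roots none of the 10 tubulin probe sets was called, with a median of -0.44. The summed photosynthesis level ran from 7.55 to 8.16 in control and from 8.18 to 8.48 in stressed CL roots, and its part in the result was not tested.

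In the roots of the other genotypes no histone probe set was called by limma. The medians were 0.02 in HD2967, 0.35 in K9107 and 0.44 in K307, where 3.36%, 0.907% and 1.99% of all probe sets passed. In the same order, 0, 2 and 2 histone probe sets had an unadjusted p under 0.05. Of all 61179 probe sets, 9495, 4419 and 9117 did. wcH2A-9 (Ta.27657.6.S1_x_at) lay at 10.26, 9.61 and 10.40 in control and 10.68, 11.44 and 9.52 in stressed K9107 roots, and its percentile ranges overlapped there. In K307 roots it lay at 9.94, 10.57 and 9.52 and at 10.96, 9.96 and 10.11, again overlapping. Averaged over the genotypes none of the 18 passed (6.57% of all did). Of the 18, 1 had an unadjusted p under 0.05, as did 11847 of all 61179 probe sets.

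The root response differed between genotypes for 2 of the 18 probe sets (F-test, 1.46% of all), Ta.27657.14.S1_s_at of wcH2A-9 and Ta.7378.35.S1_x_at of wcH2B-8 (adjusted p = 0.0432 and 0.0159). In the first, the difference was -2.33 ± 0.44 in CL, against 0.09 ± 0.50, 0.18 ± 0.44 and 0.67 ± 0.45 in HD2967, K9107 and K307. The test sets the CL scale against the other scales, and without the 12 CL arrays it called 0 of the 18. The count was also 0 without CL root control array 3, and 4 and 5 without CL root stressed arrays 2 and 3. Leaving out 1 array gave a count of 1 in 15 of the 24 fits, mostly arrays of the other genotypes.

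The responses of the tissues differed in CL for 7 of 18 probe sets, all with the root response below the shoot response (1.46% of all probe sets were called in that direction). For wcH2A-9 (Ta.27657.6.S1_x_at) the root response minus the shoot response was -8.09 ± 1.76 (adjusted p = 0.00991), for wcH2B-8 (Ta.7378.35.S1_x_at) -6.74 ± 1.33 (adjusted p = 0.00473) and for wcH2A-3 (Ta.27192.1.S1_at) -4.11 ± 1.05 (adjusted p = 0.031). For wcH2A-9 and wcH2A-3 the control shoot values lay below the array medians, so these sizes may depend on the floor. The count was 2 with no set term, and 4, 4, 3 and 4 without CL shoot stressed array 1, shoot stressed array 2, root stressed array 1 and root control array 3. In HD2967, K9107 and K307 no histone probe set passed (0.27%, 0.154% and 0.312% of all did), and 0, 4 and 0 had an unadjusted p under 0.05. Of all 61179 probe sets, 3881, 4052 and 5240 had one.

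Root and shoot levels were then compared at each supply, in 1 fit of all 48 arrays. At control N, K9107 roots were above shoots for 14 of 18 probe sets (11.7% of all probe sets were called higher in roots), with a median of 3.22 against 0.01. wcH2A-9 (Ta.27657.6.S1_x_at) lay at 10.26, 9.61 and 10.40 in K9107 control roots against 4.06, 4.66 and 5.19 in control shoots, a difference of 5.45 ± 1.24 (adjusted p = 0.00096). In CL control seedlings 10 of 18 were higher in roots (10.2% of all), wcH2A-9 by 5.68 ± 1.24 (adjusted p = 0.000828). wcH2B-6 passed there as well, at 1.08 ± 0.36 (adjusted p = 0.0312). The CL control shoot values of wcH2A-9 lay below the array medians, as given above.

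In stressed CL seedlings the sign was the other way, with 3 of 18 lower in roots and none higher (7.14% of all were called lower). These were wcH2B-8 (Ta.7378.35.S1_x_at) at -2.76 ± 0.94, and the wcH2A-9 probe sets Ta.27657.14.S1_s_at at -3.37 ± 1.07 and Ta.27657.1.S1_at at -2.55 ± 0.83 (adjusted p = 0.0472, 0.0295 and 0.0355). The CL control count was 6 without root control array 1, shoot control array 2 or shoot control array 3 and 5 without root control array 3. The CL stressed count was 0 or 1 without 5 of the 6 arrays, that is, each of them but root stressed array 3.

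HD2967 control seedlings had 1 call, wcH2A-3 at 2.31 ± 0.74 (adjusted p = 0.0216; 10.7% of all were higher in roots). That count was 16 without the HD2967 control shoot array 1, on which wcH2A-9 ranked at 99.1, and 0 without control shoot array 2 or 3 or control root array 3. Calls over all probe sets were not counted in those fits, so how far the count of 16 is particular to the histones is not known. In HD2967 stressed, K9107 stressed, K307 control and K307 stressed seedlings 1 of 18 was called, each time Ta.27192.1.S1_s_at of wcH2A-3, higher in roots by 0.92 ± 0.32, 0.92 ± 0.32, 0.98 ± 0.31 and 0.90 ± 0.31 (adjusted p = 0.0388, 0.0385, 0.0175 and 0.0326; 9.44%, 9.76%, 13.4% and 12.6% of all were higher in roots). This probe set, with the smallest shoot spread of the 18, was also higher in roots in K9107 control and CL control seedlings, at 0.85 ± 0.31 and 1.14 ± 0.31 (adjusted p = 0.0441 and 0.00778). With 1 array left out, each of the 4 single calls was lost in 3 to 5 of 6 fits, the K9107 control call in 5 and the CL control call in 2.

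The genotypes HD2967, K9107 and K307 were compared at control N, in the fit with the set term. The HD2967 and K9107 control arrays shared no set, so the set offset between them came from other groups. In roots 3 of 18 probe sets passed (F-test, 9.02% of all): Ta.7378.1.S1_at and Ta.7378.1.S1_x_at of wcH2B-8 and Ta.27657.7.S1_x_at of wcH2A-9 (adjusted p = 0.0014, 0.00229 and 0.00843). Ta.7378.1.S1_at lay at 6.28, 5.38 and 6.51 in K9107, at 7.40, 7.31 and 8.00 in HD2967 and at 7.64, 8.76 and 7.59 in K307 control roots. Its percentile in the array was 63.0, 62.7 and 66.2 in K9107 and at least 82.6 in HD2967 and K307. All 9 fits with 1 array left out gave 3 calls, and the fit with no set term 1.

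Other probe sets of the same genes did not pass in roots. wcH2B-8 read from Ta.7378.35.S1_x_at had an adjusted p of 0.325 and wcH2A-9 read from Ta.27657.6.S1_x_at of 0.31. The difference between probe sets of a gene on 1 array, chosen for description after the values were seen, leaves out any offset of the set that both share. For wcH2A-9, Ta.27657.7.S1_x_at minus Ta.27657.6.S1_x_at ran from -0.21 to -0.03 on the 6 HD2967 root arrays and from -0.59 to -0.23 in K307. In K9107 roots it ran from -1.36 to -1.17, with no overlap with either.

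For wcH2B-8, Ta.7378.1.S1_at minus Ta.7378.35.S1_x_at ran from -1.34 to -0.94 in HD2967 roots, from -1.43 to -0.84 in K307 roots and from -3.04 to -1.42 in K9107 roots. The K9107 array nearest to the other genotypes was stressed array 2, where Ta.7378.1.S1_at ranked at the 85.8th percentile against 60.3 and 74.6 on stressed arrays 1 and 3. For the third probe set that passed, Ta.7378.1.S1_x_at minus Ta.7378.35.S1_x_at overlapped between genotypes, from -1.86 to -0.19 in K9107 roots, -0.27 to 0.25 in HD2967 and -0.47 to 0.14 in K307. In shoots the genotypes overlapped for each pair, with wcH2A-9 from -1.44 to 1.77 in K9107. Which copies of a gene each probe set binds in each genotype was not tested. The CL values of these differences lie on another scale and are shown in the plot of probe set pairs only.

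**Figure D5:**
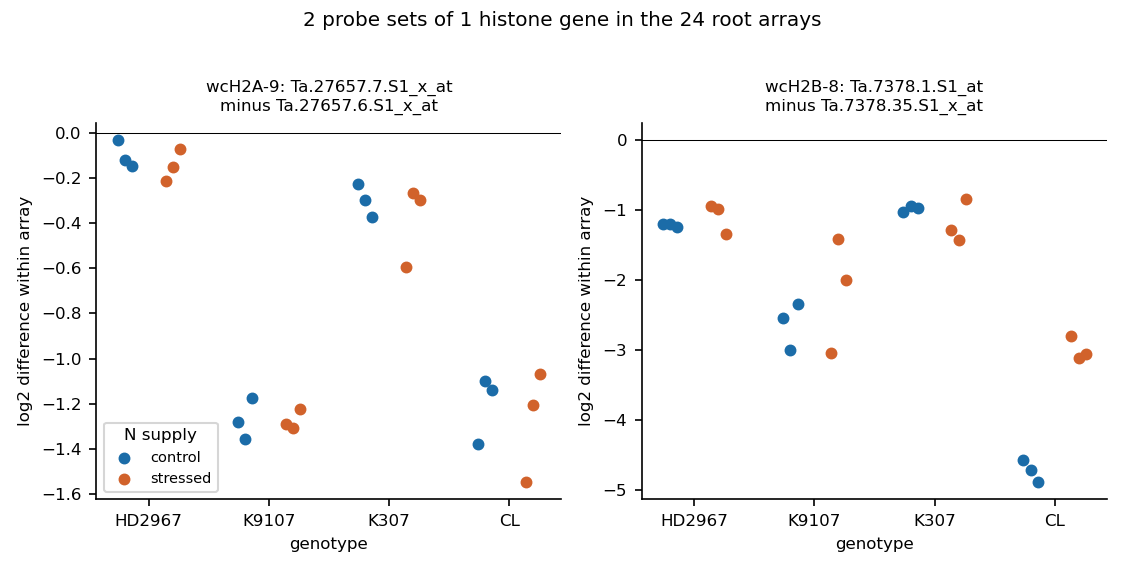
Difference of 2 probe sets of the same gene on each of the 24 root arrays (y axis, log2), for wcH2A-9 (left) and wcH2B-8 (right), by genotype (x axis), blue for control and orange for stressed. For wcH2A-9 the K9107 points, from -1.36 to -1.17, lie below HD2967 and K307, for wcH2B-8 the highest K9107 point (-1.42) reaches the lowest K307 point (-1.43), and CL points come from a scale of their own.

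In shoots at control N 2 of 18 probe sets passed (F-test, 7.39% of all), Ta.27657.6.S1_x_at and Ta.27657.1.S1_at of wcH2A-9 (adjusted p = 0.0398 and 0.0324). For the first, the 3 K307 control arrays were high (percentiles 96.8, 97.8 and 98.3), the 3 K9107 arrays low (46.4, 37.8 and 48.2) and the HD2967 arrays split (99.1, 55.5 and 53.6). The set offset of the HD2967 control arrays rested on K307 control array 3 and on stressed array 3 of K307 and K9107. These stressed arrays were the low ones, at percentiles 54.2 and 52.0. How far the offset holds the high and low split was not tested. The count was 13 without HD2967 control array 1 and 0 without any 1 of the K9107 control arrays or K307 control array 2. The share of all probe sets called in those fits was not counted. With no set term it was 0.

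In roots the named genes whose residuals were most like the mean of the 5 histone genes over the 24 arrays were PEAMT1 (phosphoethanolamine N-methyltransferase, r = 0.77), ALMT1-1 (an aluminium-activated malate transporter, 0.69), lgul (lactoylglutathione lyase, 0.56), Hmgb3 (0.55), TUBA (0.53) and EM (a late embryogenesis protein, 0.53). Of all 61179 probe sets, 15 had an r above 0.9, members included. Each named gene was again ranked by its probe set of highest correlation. These values describe arrays that share sets and group means.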

How the data were processed

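Transcripts were measured on 48 arrays, 3 in each of 16 groups. Per the submitters' processing notes, RMA gave the log2 values that the authors deposited. Per the series' design text in the labels, the authors' own test was Student's at a p of at most 0.1, run in GeneSpring 14.5. Which arrays were normalized together is not given in the sources used here, and no array-level depth or background is held. The number of arrays limits the precision.

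From these values, two-sided limma models (version 3.58.1, R 4.3.3, eBayes after contrasts.fit) were fitted to 24 arrays per tissue, with group and normalization set as fixed terms (14 residual degrees of freedom), and to all 48 for comparisons between tissues (30). Benjamini-Hochberg adjustment ran over 61179 probe sets, with a threshold of 0.05 and 111 control probe sets left out. Percentiles and plots were made in Python 3.11.15. On simulated data for 61179 probe sets, in which 100 were changed by 1 log2 unit, the model called 60 of them in CL shoots and 69 in CL roots. The changed probe sets were drawn at random, with normal noise at their own residual SD. These rates therefore do not hold for the histone probe sets with a larger spread.

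The annotation pairs 1273 probe sets with 1 gene each. It and the gene table hold names for 102 genes, so the lists set beside the histones came from those names. The named genes were all 5 member genes, any member probe set past the threshold, and the 6 named genes most like them in each tissue. The members and lists were chosen with earlier results of these data known. Sequences and promoters were not used here.

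As a check of pairing by replicate number, residuals of same-numbered control and stressed arrays were correlated. All 3 passed 0.1 only in CL shoots (0.115 to 0.228), so pairing was accepted there and nowhere else, from the values and not from the labels.

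Alternatives were no set term, the set as a random block, quantile normalization of all arrays again, a replicate block, the 6 arrays of a genotype alone, array weights, a filter on low values, the methods' t-test, leaving out CL and leaving out each array.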

Additional observations from a re-analysis of the deposited data

Results flagged for a closer look

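The response to low N differed between genotypes in roots for Ta.27657.14.S1_s_at of wcH2A-9 and Ta.7378.35.S1_x_at of wcH2B-8, with an adjusted p of 0.0432 and 0.0159 in limma's F-test of genotype by N. Both were lower under stress in CL, and neither was called in another genotype.

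The response also differed between tissues in CL, by the interaction of tissue and N in limma, for 7 histone probe sets. The root response minus the shoot response was -4.110 for Ta.27192.1.S1_at of wcH2A-3. For wcH2A-9 it was -8.088 in Ta.27657.6.S1_x_at, -5.147 in Ta.27657.1.S1_at, -7.543 in Ta.27657.14.S1_s_at and -5.108 in Ta.27657.12.S1_at. For wcH2B-8 it was -6.744 in Ta.7378.35.S1_x_at and -5.060 in Ta.7378.21.S1_at. In each the root estimate lay below 0 and the shoot estimate above 0.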

How the results depend on the processing

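Counts are histone probe sets called out of 18. In the alternative fits and those with 1 array left out, adjusted calls were counted among these 18 only. No share over all probe sets therefore stands beside these counts. With no set term the count was 1 for CL roots, 0 for CL shoots, 2 for the response by tissue in CL, 1 and 0 for genotype at control N in roots and shoots, and 0 for genotype by N in roots. For roots against shoots it was then 5 in CL control, and 0 in CL stressed, HD2967 control, HD2967 stressed, K307 control and K307 stressed seedlings. After quantile normalization of all arrays the count was 7 for CL shoots and 11 for the response by tissue in CL, and 0 for roots against shoots in HD2967 stressed, K9107 stressed, K307 control and K307 stressed seedlings. The replicate block gave 9 for CL shoots, 5 for K9107 shoots, and 3 and 0 for roots against shoots in HD2967 control and stressed seedlings. Fits on 6 arrays alone gave 0 for CL roots, 11 for CL shoots and 13 for K9107 shoots, and could not be made with the set for HD2967 shoots. The K9107 count left stressed array 3 out of the difference, as the set term took it up. Array weights gave 4 for CL roots, 7 for CL shoots, 1 for K9107 shoots and 5 for the shoot average. Genotype by N in roots had 0 without the 12 CL arrays. The methods' t-test gave 0 in CL roots and shoots after Benjamini-Hochberg adjustment. At its threshold of p at most 0.1 it named 10 and 17, where 10.5% and 16.9% of all probe sets passed, and 0 in HD2967, K9107 and K307, where 13.6%, 3.14% and 10.1% of all passed in roots and 18.3%, 2.56% and 5.99% in shoots. The causes were not tested.

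With 1 array left out the counts ran from 2 to 8 for CL roots, 0 to 1 for K9107 roots and the root average, 0 to 4 for CL shoots, 3 to 9 for the response by tissue in CL, 0 to 5 for genotype by N in roots and 0 to 13 for genotype at control N in shoots. For roots against shoots they ran from 5 to 8 in CL control, 0 to 3 in CL stressed, 0 to 16 in HD2967 control, 0 to 2 in HD2967 stressed, 9 to 14 in K9107 control, and 0 to 1 in K9107 stressed, K307 control and K307 stressed seedlings. Read from Ta.27192.1.S1_s_at, wcH2A-3 had the other sign, -0.53 for CL shoots and 0.98 for roots against shoots in K307 control. Of single values that passed, 398 alternatives kept the call, 221 lost it and 1 changed sign.

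Limits: 3 arrays a group, of unknown pots, set the precision. The CL scale cannot be told apart from the genotype. Promoter motifs and sequences were not analysed here.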
